A study of Mus musculus with 40 samples.

Results

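The genes described here code for the proteins of the cytosolic ribosome. They were taken as the protein-coding genes in both count tables whose symbol is Rpl or Rps with a number and the usual suffixes, together with Rplp0, Rplp1, Rplp2, Rpsa and Fau. S6 kinase genes and entries marked as pseudogenes were left out. This gave 84 genes, 33 of the small subunit and 51 of the large, of 28467 genes in the bulk table and 32285 in the nucleus table. In bulk 82 of them passed the filter on low counts at every time point. The other two, Rpl10l and Rpl39l, had no UMI (unique molecular identifier, 1 per captured RNA molecule) in the nuclei either.

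The samples were right kidneys of male C57BL/6 mice aged 8 to 12 weeks. UNx stands for unilateral nephrectomy: these mice had lost their left kidney to surgery and kept the right, and sham mice had the operation without the removal. Bulk polyadenylated RNA was sequenced from 6 sham and 6 UNx kidneys at each of 24, 48 and 72 h after surgery, 36 libraries in all. Nuclei sorted from 2 sham and 2 UNx kidneys at 24 h gave 16500 nuclei. The 24 h bulk libraries are labelled batch 1 and those of 48 and 72 h batch 2. Each bulk comparison of UNx with sham thus lies within a labelled batch. Nucleus replicate 1 of each group is labelled batch 3 and replicate 2 batch 4. The main nucleus fit joins both batches, and a second fit compares UNx with sham within them. The labels do not say whether mice were pooled. The question the design puts to these genes is whether their RNA changes in the kidney that remains, during the days in which it grows.

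Most ribosomal proteins are needed in equal numbers in each ribosome, and ribosomal protein genes are among the most highly expressed of any cell. Most of their mRNAs begin with a C followed by a run of pyrimidines, the terminal oligopyrimidine (TOP) motif, through which growth signals acting on the kinase complex mTORC1 set how much of each mRNA is translated. Output of these proteins can therefore change with no change in mRNA. In the kidney that remains after nephrectomy, mTORC1 and the kinase that phosphorylates Rps6 are known to take part in growth. Ribosomal protein genes also have many processed pseudogenes, near-identical copies spread over the genome, to which sequencing reads can be assigned in place of the gene.

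The start of the transcript carries the TOP motif, and 64 of the 84 genes had a start in the RefSeq promoter table for mouse build GRCm38.p6. A C followed by 4 bases that are each C or T, read on the transcribed strand from the listed start, stood at the start of 13 of the 64 (20.3%), against 673 of 27025 genes in the table (2.49%). Allowing the run to begin within 2 bases of the listed start, 21 of the 64 (32.8%) had it, against 2422 of all genes (8.96%). Here 5 genes with the run and 3 without it are shown because results below turn on them. Each line has 12 bases before the listed start and 18 from it, 5′ to 3′, with capitals for the pyrimidine run from the listed start or, where there is none, for the first transcribed base.
Fau: gcgcccccacttCTTCCTCTTTCTTgactc
Rps6: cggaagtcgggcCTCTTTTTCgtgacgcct
Rpl28: cctctcgtgtctCTCTTTCCgtctccggcc
Rpl35: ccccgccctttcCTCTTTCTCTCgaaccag
Rplp2: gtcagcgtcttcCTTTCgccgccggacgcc
Rpl10: gttacagtggaaGataggccgcctatataa
Rpl5: cacgtcgcttgcGtgctggtggtgctacat
Rpl22l1: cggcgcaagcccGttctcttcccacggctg
In GRCm38.p6 these windows are chr19:6057935-6057964 (Fau), chr7:4792953-4792982 (Rpl28), chr7:141447639-141447668 (Rplp2), chrX:74270804-74270833 (Rpl10), chr5:107900516-107900545 (Rpl5) and chr3:28805496-28805525 (Rpl22l1) on the plus strand, and chr4:86857350-86857379 (Rps6) and chr2:39005114-39005143 (Rpl35) on the minus strand. A listed start without the run shows only that these letters are not at that position. Of the 13 genes with the run 5 were called higher and 1 lower at 24 h and 3 and 6 at 48 h, and of the 49 tested without it 21 and 5 at 24 h and 8 and 13 at 48 h. Over all genes tested 27.3% were called in either direction at 24 h and 32.9% at 48 h. Whether these counts differ was not tested.

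Library totals ranged from 14868434 to 24108453 counts. Markers of the proximal tubule, the main cell type of the kidney cortex, summed to between 8220 and 11730 CPM (counts scaled to a common library size) in all groups, and none of the 6 was at 0. Libraries differed in 2 measures that the groups at 24 and 48 h do not share. Mitochondrially encoded genes took 23.5 to 26.7% of counts in 24 h shams and 21.5 to 24.9% in 24 h UNx, 14.0 to 15.5% in 48 h shams, 25.8 to 26.4% in 48 h UNx replicates 1 to 5 but 15.2% in 48 h UNx replicate 6, and 13.6 to 16.1% in all 72 h libraries. A score over 254 pseudogenes, none of a ribosomal protein, was set at 0 for the mean of the 48 and 72 h shams and 1 for that of the 24 h shams. It ran from 0.661 to 0.870 in 24 h UNx, was 0.0138 in 48 h UNx replicate 6 and reached 0.719 in the other replicates of that group, and lay between -0.0498 and 0.0990 in all other libraries of 48 and 72 h. Red blood cell markers summed to 421 to 957 CPM in 48 h shams and 262 to 654 in 48 h UNx. Adipocyte markers summed to 19.4 to 28.8 CPM in 24 h shams and 23.5 to 625 in 24 h UNx. At 48 h they had 27.2 to 311 in shams and 14.0 to 119 in UNx. Fibroblast markers had 31.8 to 61.9 and 41.3 to 123 CPM in shams and UNx of 24 h, and 79.2 to 122 and 39.7 to 113 in those of 48 h. The part of these differences in the results below was not tested, except by adding the mitochondrial share or the pseudogene score to the fits. Such a fit cannot tell a measure from UNx where the measure separates the groups.

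Ribosomal protein genes together took 0.958 ± 0.0575% of all counts (mean ± SD, n = 6) in 24 h shams and 1.03 ± 0.0383% in 24 h UNx. The single libraries ran from 0.882 to 1.05% and from 0.987 to 1.09%, so the groups overlapped. At 48 h the share was 1.37 ± 0.0983% in shams, from 1.24 to 1.54%, and 1.13 ± 0.128% in UNx. UNx replicates 1 to 5 lay between 1.00 and 1.19%, below every sham, and replicate 6 stood among the shams at 1.35%. At 72 h the share was 1.33 ± 0.0622% in shams, from 1.23 to 1.42%, and 1.24 ± 0.0726% in UNx, from 1.17 to 1.38%, with overlap. The difference of UNx from sham was thus 0.0723, -0.246 and -0.0846 percentage points at the 3 times. With mitochondrial genes left out of the total the 48 h difference was -0.123 points, and UNx replicates 1 to 5, at 1.36 to 1.601%, overlapped the shams at 1.45 to 1.79%. A share of tissue RNA cannot tell fewer cells with a high content of these mRNAs from less mRNA per cell.

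**Figure D1:**
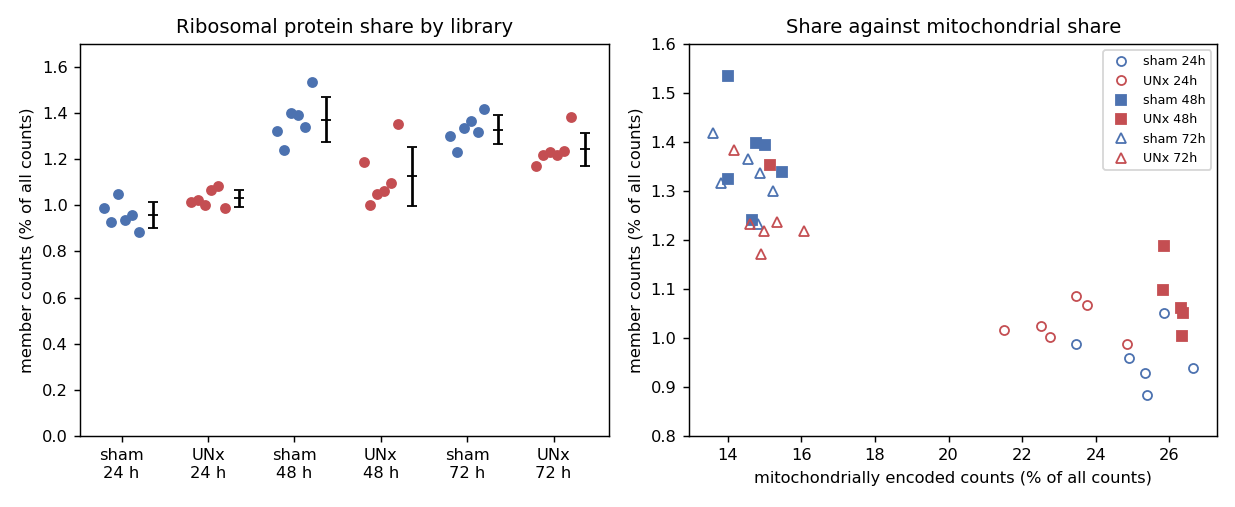
Share of all counts from the 84 ribosomal protein genes in percent, 1 point per bulk library, by time point (sham blue, UNx red) with the group mean ± SD (n = 6), and the same share against the share of mitochondrially encoded counts. At 48 h replicates 1 to 5 of UNx lie at 1.00 to 1.19% and replicate 6, with 15.2% mitochondrial counts, at 1.35% among the shams.

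At 24 h more ribosomal protein genes rose than fell. By edgeR's quasi-likelihood test 35 of 82 were called higher in UNx and 7 lower (called means a Benjamini-Hochberg adjusted p under 0.05 over all genes tested), while 27.3% of all genes tested were called, 14.2% higher and 13.1% lower. Of the small subunit 15 rose and 1 fell of 33, and of the large subunit 20 rose and 6 fell of 49. The median log2 fold change over the 82 was 0.15, against 0.0054 over all genes. In 15 of them every UNx library lay above every sham (5.75% of all genes), and in 4 every UNx library lay below (4.62%, and 10.4% in either direction). With the pseudogene score in the fit 0 of the 82 were called by edgeR (3 at an unadjusted p under 0.05), and with the mitochondrial share 11. These counts stand without the share of all genes called in the same fits and are not read as particular to these genes. The score did not overlap between the groups, at 0.968 to 1.04 in shams and 0.661 to 0.870 in UNx. A fit with it can therefore hardly tell the score from UNx, and calls lost or signs turned there decide nothing.

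Rpl10, a large-subunit protein near the centre where peptide bonds form, had 7.56, 12.9 and 15.2 CPM (lowest, median and highest) in 24 h shams and 14.5, 25.1 and 31.0 in UNx. All but the lowest UNx library lay above every sham, and the log2 fold change was 0.93 ± 0.18 (SE, adjusted p = 0.0017). Rpl22l1, the paralog of Rpl22, rose by 1.03 (adjusted p = 0.0012) from a low level, with 2.03, 2.26 and 3.93 CPM in shams and 3.12, 5.73 and 5.92 in UNx. Rpl9, a large-subunit protein, rose with no overlap, from 54.4, 68.3 and 78.2 CPM to 82.3, 119 and 140 CPM (0.79 ± 0.11, adjusted p = 2.7e-04). These 3 genes gave the largest log2 rises at this time.

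Rps27a, which is made as a fusion of ubiquitin with a small-subunit protein, had 39.4, 47.0 and 56.7 CPM in shams and 57.3, 84.5 and 91.8 in UNx (0.77 ± 0.11, adjusted p = 3.0e-04). The groups did not overlap, as in Rpl39, a very short large-subunit protein, with 14.6, 16.8 and 21.9 CPM against 22.3, 30.0 and 35.9 (0.76 ± 0.12, adjusted p = 6.4e-04). Rps14 rose by 0.65 (adjusted p = 0.0030) and Rpl37a by 0.61 (adjusted p = 6.9e-04), both without overlap. With the pseudogene score in the fit the estimates for Rpl10, Rpl9, Rps27a, Rpl39, Rps14 and Rpl37a had the opposite sign, between -0.28 and -0.02, and Rpl22l1 had -0.31. Among the other rises Rps19, mutated in Diamond-Blackfan anaemia, had 45.9, 50.8 and 55.6 CPM in shams and 59.6, 71.8 and 80.3 in UNx (0.49, adjusted p = 3.3e-04). Rps2, a small-subunit protein at the entry of the mRNA channel, had 293, 326 and 360 CPM against 373, 386 and 408 (0.26, adjusted p = 0.0022). Both rose without overlap, and these 2 genes were named after their values were seen.

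The falls at 24 h were smaller in number. Rpl5, which with Rpl11 carries the smallest ribosomal RNA of the large subunit and can bind Mdm2, had 36.4, 38.0 and 43.0 CPM in shams and 25.5, 27.4 and 28.1 in UNx. All 6 UNx libraries lay below all shams, and the log2 fold change was -0.52 ± 0.054 (adjusted p = 4.4e-05), while the sum of Rpl5 and its near-identical copies, described further on, gave 0.09 (adjusted p = 0.25). Rps3a1 fell from 273, 365 and 378 CPM to 233, 244 and 271 (-0.46, adjusted p = 0.0015) and Rpl19 from 271, 344 and 391 CPM to 232, 254 and 268 (-0.42, adjusted p = 0.0017), both without overlap. Rpl28 (-0.28, adjusted p = 0.018) and Rpl23 (-0.21, adjusted p = 0.020) fell with overlapping groups, and these genes had estimates above 0 with the pseudogene score in the fit.

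**Figure D2:**
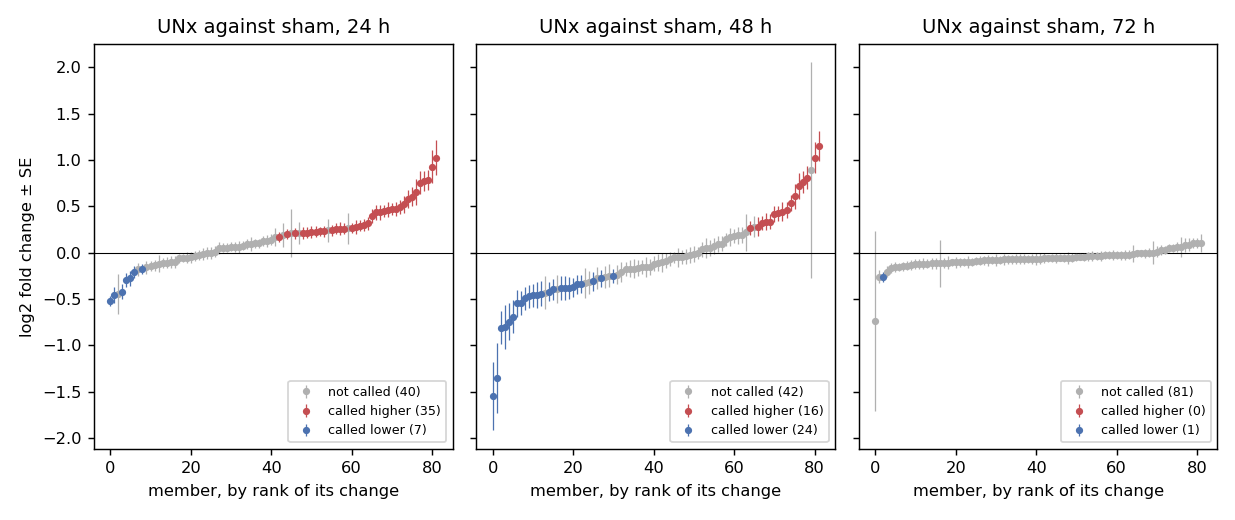
Log2 fold change of UNx against sham (y axis, bars ± SE) of each of the 82 genes tested, ordered by its change (x axis), at 24, 48 and 72 h, with called genes in red (higher) and blue (lower). At 24 h 35 are higher and 7 lower, at 48 h 16 and 24, and at 72 h 0 and 1; the gene with the widest bar at 48 and 72 h is Rps27.

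At 48 h the genes split in both directions and more fell than rose. 16 of 82 were called higher and 24 lower by edgeR, when 32.9% of all genes were called, 16.9% higher and 16% lower. The small subunit had 7 rises and 13 falls of 33, and the large subunit 9 and 11 of 49. The median over the 82 was -0.11, against -0.040 over all genes. UNx lay wholly above sham for 5 genes (6.21% of all genes), Rpl29, Rpl35, Rps2, Rps24 and Rpl21, and wholly below for 0 (4.81%, and 11% in either direction). With the mitochondrial share in the fit 0 of the 82 were called by edgeR (4 at an unadjusted p under 0.05), and with the pseudogene score 0 (3 at an unadjusted p under 0.05). Here too the share of all genes called in the same fits is not set beside the counts. Both measures set UNx replicates 1 to 5 apart from every sham and left replicate 6 within the shams. The estimates of these fits therefore rest mainly on replicate 6, and the fits are not checks separate from it or from each other.

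The strongest rise was that of Rps26, a small-subunit protein, with 70.7, 78.4 and 92.0 CPM in 48 h shams and 170 to 227 CPM in UNx replicates 1 to 5. Replicate 6 had 90.9 CPM, within the shams, and over all 6 the log2 fold change was 1.15 ± 0.16 (adjusted p = 4.5e-04). Rpl28 had 76.7, 84.5 and 95.7 CPM in shams, 164 to 216 in UNx replicates 1 to 5 and 86.7 in replicate 6 (1.02, adjusted p = 8.1e-04). Rpl29 lay above the shams in all 6 UNx libraries, at 280 to 386 CPM and, in replicate 6, 191, against 155 to 185 (0.81, adjusted p = 6.6e-04). The rise of Rpl35 was 0.76 (adjusted p = 6.9e-04), with 67.5 to 89.99 CPM in shams, 121 to 169 in UNx replicates 1 to 5 and 90.1 in replicate 6. Rps2, already higher at 24 h, had 393, 430 and 475 CPM in 48 h shams and 560 to 757 CPM in UNx, where replicate 6, at 566, also lay above every sham (0.53, adjusted p = 7.3e-04). Rps28, a short small-subunit protein, rose by 0.61 (adjusted p = 0.0043). With the mitochondrial share in the fit the estimates were 0.19 for Rps26, 0.02 for Rpl28, 0.19 for Rpl29 and 0.23 for Rpl35, and that of Rps28 turned to -0.10. The pseudogene score in its place gave 0.27 for Rps26, 0.11 for Rpl28, 0.23 for Rpl29, 0.29 for Rpl35 and -0.02 for Rps28. In replicate 6 alone Rps28 had -0.09.

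Rpl10 gave the deepest fall at 48 h, with 105, 116 and 122 CPM in shams and 18.5 to 34.3 in UNx replicates 1 to 5. Replicate 6 had 109 CPM, a level of the shams, and the log2 fold change over all 6 was -1.55 ± 0.37 (adjusted p = 0.0065). Rpl22l1 followed the same pattern, with 14.8 to 22.3 CPM in shams, 3.96 to 4.61 in UNx replicates 1 to 5 and 20.6 in replicate 6 (-1.35 ± 0.37, adjusted p = 0.014). Rps6, the substrate of S6 kinase, had 169, 206 and 231 CPM in shams, 80.8 to 116 in UNx replicates 1 to 5 and 197 in replicate 6 (-0.81, adjusted p = 0.0047), and with its copies added it turned to 0.41. Rpl39, Rpl24 and Rps27a fell by 0.80, 0.75 and 0.69 (adjusted p = 0.019, 0.012 and 0.0090), each with replicates 1 to 5 below every sham and replicate 6 within or above them. With the mitochondrial share in the fit the estimates turned to 0.33, 0.23 and 0.16 for Rpl39, Rpl24 and Rps27a, 0.04 for Rpl10 and 0.24 for Rpl22l1, and Rps6 had -0.03. The pseudogene score in its place gave 0.30, 0.20, 0.14, -0.11, 0.22 and -0.04 in the same order.

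That 1 library bears on many of these values. UNx replicates 1 to 5 lay beyond every sham for 13 of the 16 genes called higher and 21 of the 24 called lower, and replicate 6 lay within the range of the shams for 9 of the 16 and 23 of the 24. Over all 82 genes these counts were 36 and 67. The calls were made from these same libraries, so the counts are no separate evidence for them. How many of all genes tested show the same pattern was not counted, so it is not read as particular to these genes. Set alone against the 6 shams, replicate 6 had the same sign as the call for 15 of the 16 and for 6 of the 24. Its median log2 fold change was 0.086 over all 82 genes, 0.14 over the 16 and 0.074 over the 24. Signs above 0 were thus common in this library whatever the call. Without it all 40 kept their call and direction, and 53 of 82 were called. No share of all genes is set beside that count, so it is not read as particular to these genes. By the median absolute log2 difference over the 82 genes, replicate 6 lay nearest to the mean of the 48 h shams (0.107), and replicates 1 to 5 lay 0.303 to 0.418 from that mean, 0.203 to 0.382 from the mean of 24 h UNx, 0.351 to 0.532 from that of 24 h shams, 0.282 to 0.368 from that of 72 h shams and 0.270 to 0.347 from that of 72 h UNx.

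**Figure D3:**
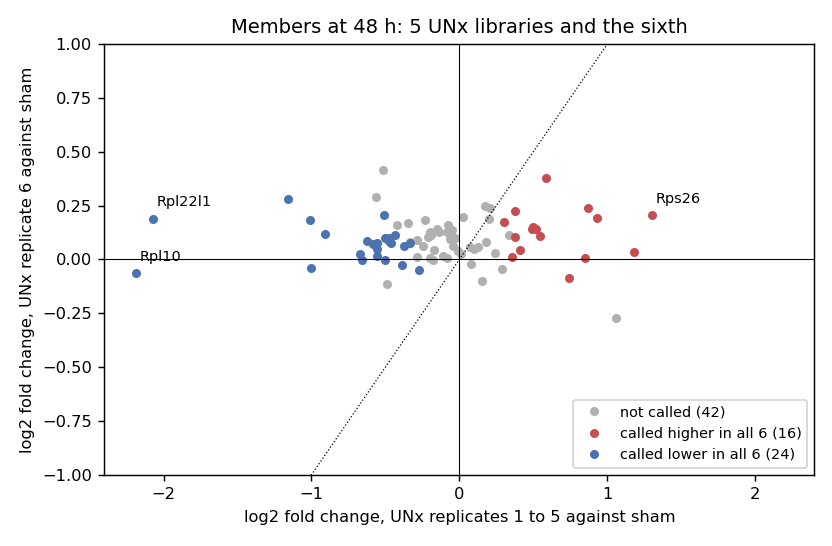
Log2 fold change against the 6 shams at 48 h of each of the 82 genes, in UNx replicates 1 to 5 (x axis) and in UNx replicate 6 alone (y axis, on a narrower scale); red and blue points were called higher and lower over all 6 and the dotted line marks equal values. Replicate 6 keeps within -0.27 to 0.42, while Rpl10 and Rpl22l1 lie far to the left.

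At 72 h fewer genes were called over the whole table (1.71%) and among the ribosomal protein genes edgeR called 0 higher and 1 lower of 82. Called higher were 1.21% of all genes and called lower 0.502%. Estimates lay below 0 for 70 of the 82, with a median of -0.067 (all genes -0.0042), and 17 had an unadjusted p under 0.05, all of them lower. DESeq2 and limma-voom each called 5 lower and 0 higher. The gene called was Rpl5, with 34.0, 37.1 and 39.7 CPM in shams and 28.0, 30.9 and 33.7 in UNx. The 2 groups did not overlap, and the log2 fold change was -0.26 ± 0.055 (adjusted p = 0.033). The count of 1 went to 0 without sham replicate 2, 3, 4 or 6 or UNx replicate 1, 2 or 5, to 3 without UNx replicate 6, and to 0 with the pseudogene score in the fit (13 at an unadjusted p under 0.05). Rpl11 had 173, 185 and 201 CPM in shams and 163, 167 and 171 in UNx, and was not called (-0.15, adjusted p = 0.11). UNx lay wholly below sham also for Rpl7, Rps7 and Rpl35, with log2 fold changes of -0.11 to -0.16 (adjusted p = 0.13 or more), which with Rpl11 and Rpl5 makes 5 of 82, against 0.749% of all genes, and wholly above for 0 of 82, against 1.31% (2.05% in either direction). With near-identical copies added, Rpl7 alone of the 5 had UNx wholly below sham.

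Rpl5 was the one gene called lower at both 24 and 48 h, and the one called at 72 h. At 48 h it had 28.4, 35.9 and 41.3 CPM in shams, 19.9 to 23.6 in UNx replicates 1 to 5 and 35.7 in replicate 6 (-0.54, adjusted p = 0.0066). A copy of it, Gm15500, shares 99.9% of its 31-base words with Rpl5 transcripts in the GENCODE M21 annotation and held 240 CPM on average over the 36 libraries, against 32.7 for Rpl5. With the counts of Rpl5 and its copies added together, the values were 199, 205 and 214 CPM in 24 h shams and 188, 223 and 229 in 24 h UNx, with a log2 fold change of 0.09 (adjusted p = 0.25). The sum was -0.28 at 48 h (adjusted p = 0.026) and -0.12 at 72 h (adjusted p = 0.22). The fall at 24 and 72 h was thus called in the counts assigned to Rpl5 and not in the sum. Rpl11, its partner, was called at no time when counted alone (-0.18, -0.15 and -0.15, adjusted p = 0.078 or more). With its copies, chiefly Gm10288, Rpl11 had 228, 275 and 302 CPM in 24 h shams and 192, 206 and 230 in 24 h UNx, and fell by 0.36 (adjusted p = 0.0025). At 48 h the sum was 149, 165 and 197 CPM in shams and 189, 220 and 266 in UNx, a rise of 0.42 (adjusted p = 0.0035) with overlap through replicate 6, and at 72 h the estimate was -0.10 (adjusted p = 0.27). The 48 h direction of Rpl11 thus turned with the copies.

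Adding near-identical copies was an alternative chosen after the data were seen, and 62 genes had at least 1 such copy, 341 in all, defined by at least 10% of 31-base words shared in both directions. For 8 genes the copies held more counts than the gene itself, Rpl12, Rps27, Rpl5, Rpl10, Rpl27, Rpl27a, Rps23 and Rpl10a. With copies added 35 genes were called higher and 9 lower at 24 h, 38 of them also called in the same direction without, and 19 higher and 20 lower at 48 h, 36 of them called in the same direction without. UNx lay wholly above sham for 17 and wholly below for 2 at 24 h (15 and 4 without the copies), 4 and 0 at 48 h and 0 and 1 at 72 h. At 72 h 0 were called by edgeR (16 at an unadjusted p under 0.05). Rpl10 with its copies, chiefly Rpl10-ps3, kept its directions at smaller size, 0.50 at 24 h (adjusted p = 9.3e-04) and -0.42 at 48 h (adjusted p = 0.0087). Rpl28 did likewise (-0.18 and 0.71, adjusted p = 0.031 and 8.9e-04).

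Rps6 turned its direction. With its copies, chiefly Rps6-ps4, it had 201, 218 and 244 CPM in 48 h shams and 226, 294 and 339 in 48 h UNx, where replicate 6 was the lowest, a log2 fold change of 0.41 (adjusted p = 0.0034) in place of -0.81. At 24 h Rps6 alone rose by 0.28 (adjusted p = 0.012), and with its copies the estimate was -0.05. Rpl24 with its copies, chiefly Gm28037, showed 0.06 at 48 h in place of -0.75. Rps26, Rpl39, Rpl22l1, Rps28, Rpl19 and Rps3a1 had no copy with a mean of 1 CPM or more. How the counting shared reads between a gene and its copies was not tested.

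**Figure D4:**
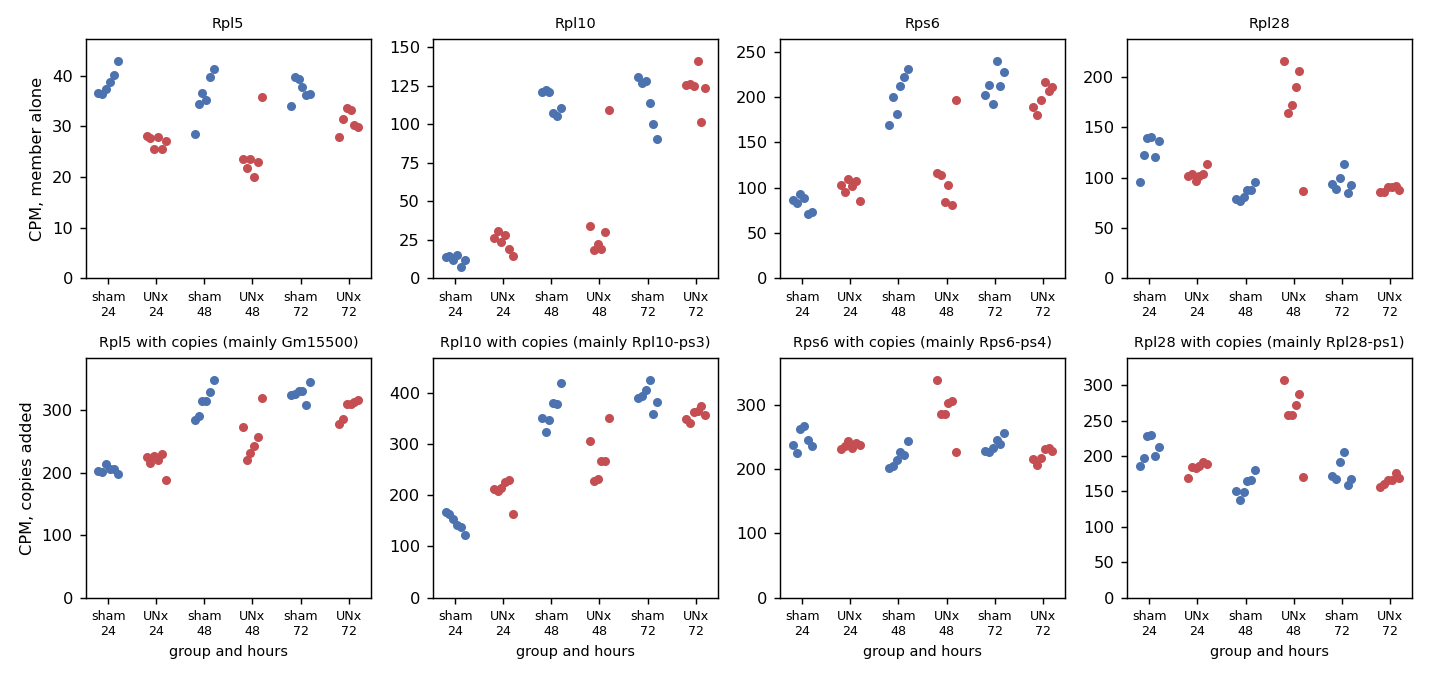
CPM of Rpl5, Rpl10, Rps6 and Rpl28 in each bulk library (y axes from 0), counted alone (top) and with near-identical copies added (bottom), by group and hour, sham in blue and UNx in red; points of a group are in replicate order. At 48 h Rps6 alone lies lower in UNx replicates 1 to 5, and with its copies UNx has 226 to 339 against 201 to 244 CPM in shams.

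Rps27, the parent of Rps27l, shows the same exchange. It was near 0 in most bulk libraries and high in single ones, 106 CPM in 48 h UNx replicate 5 and 32.5 CPM in 48 h sham replicate 3. Together with its copy Rps27rt it had 25.0 to 38.6 CPM in 24 h shams and 40.6 to 55.0 in 24 h UNx, 90.9 to 125 and 81.6 to 110 at 48 h, and 93.0 to 120 and 88.3 to 115 at 72 h. No comparison of UNx with sham in bulk is read from Rps27 alone. Rpl12, at a mean of 2.85 CPM against 109 for its copy Gm10275, gave -0.06, 0.04 and -0.09 with copies added and was called at none of the times.

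Change over time was tested as the difference between the UNx effects in 1 fit of all 36 libraries. From 24 to 48 h the effect differed for 60 of 82 genes, 19 moving up and 41 down (37% of all genes, 19.3% up and 17.7% down). From 48 to 72 h it differed for 29, 10 up and 19 down (14.6%, 5.86% up and 8.78% down), and from 24 to 72 h for 17, 2 up and 15 down (4.15%, 2.74% up and 1.41% down). Of the genes called higher at 24 h, 13 were called lower at 48 h and 4 higher again, and Rpl28 and Rpl19 were among those lower at 24 h and called higher at 48 h. Rps27a moved by -1.44 from 24 to 48 h (adjusted p = 7.6e-07), Rpl9 by -1.23 (adjusted p = 2.6e-07), Rpl28 by 1.33 (adjusted p = 5.1e-07) and Rps26 by 1.29 (adjusted p = 1.7e-07). With the pseudogene score in the fit 0 of the 82 differed by edgeR between 24 and 48 h, 0 between 48 and 72 h and 2 between 24 and 72 h. The share of all genes in those fits is not set beside these counts. The 24 h libraries are of another labelled batch than the later ones, each with its own shams.

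Shams alone give a measure of how far these genes differ without nephrectomy. Between 24 h and 72 h shams, of different labelled batches, 64 of 82 were called, 15 higher and 49 lower at 24 h (53% of all genes, 25.9% higher and 27.1% lower), with a median of -0.31 (all genes -0.034). Between 48 and 72 h shams, of 1 labelled batch, edgeR called 0 of 82 (0% of all genes, 4 of the 82 at an unadjusted p under 0.05). Across the 82 genes the UNx effect at 48 h had a Pearson r of 0.578 and a Spearman rho of 0.563 with the difference of 24 h shams from 72 h shams. These 2 contrasts share no library, but the genes share depth and annotation and are not independent replicates. Batch and time cannot be told apart between these shams.

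Members with a set role were followed at all times. Of the stalk, which recruits elongation factors, Rplp1 rose by 0.43 at 24 h (adjusted p = 0.0016) and Rplp0 fell by 0.18 (adjusted p = 0.028). At 48 h Rplp2 fell by 0.42 (adjusted p = 0.0067; 0.02 with the mitochondrial share in the fit), and Rplp1 had 0.28 (adjusted p = 0.076). So the called members of this complex went in both directions at 24 h, where with the pseudogene score in the fit Rplp0 had 0.02. Fau, a fusion of a ubiquitin-like protein with a small-subunit protein, had 0.05 and -0.03 at 24 and 48 h and was not called, while the ubiquitin fusion Rps27a rose and then fell as above. Rpsa, also known as a laminin receptor, had -0.16 at 24 h (adjusted p = 0.097) and rose by 0.44 at 48 h (adjusted p = 0.0051; 0.15 with the mitochondrial share in the fit).

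Paralogs are given beside their parents. Rpl22, the parent of Rpl22l1, had -0.10 at 24 h and fell by 0.49 at 48 h (adjusted p = 0.010), when Rpl22l1 fell by 1.35. Rpl7l1, which acts in ribosome assembly, rose by 0.26 at 24 h (adjusted p = 0.0071) as did Rpl7 by 0.24 (adjusted p = 0.010), and at 48 h Rpl7l1 had -0.05 while Rpl7 fell by 0.27 (adjusted p = 0.033). Rps27l, a target of p53, rose by 0.26 at 24 h (adjusted p = 0.0073) and had -0.33 at 48 h. Rpl7 had -0.15 and Rps27l -0.08 at 24 h with the pseudogene score in the fit, the opposite of their calls. At 48 h Rpl22, Rpl22l1 and Rpl7 had 0.12, 0.24 and 0.09 with the mitochondrial share and 0.10, 0.22 and 0.09 with the score, opposite to their falls. The striated muscle paralog Rpl3l had -0.45 at 24 h (adjusted p = 0.14), and Rpl3 0.10. At 72 h none of these was called, with Rpl22l1 at -0.26 (adjusted p = 0.080).

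Other genes of protein synthesis were read from lists. The shares called over all genes to set beside them are 14.2% higher and 13.1% lower at 24 h and 16.9% and 16% at 48 h. Of 21 translation factors and other genes with TOP mRNAs, 3 were called higher and 10 lower at 24 h, 4 and 6 at 48 h and 0 at 72 h (5 at an unadjusted p under 0.05). Eif3h, a subunit of an initiation factor, fell by 0.48 at 24 h and rose by 0.55 at 48 h. Of 32 ribosome assembly genes 15 rose and 3 fell at 24 h, 7 and 5 at 48 h and 0 at 72 h (6 at an unadjusted p under 0.05), and among them Nop10 rose by 0.50 and Wdr12 by 0.46 at 24 h, and Nhp2 by 0.79 at 48 h (0.51 at 72 h, adjusted p = 0.056). Of 20 growth control genes 2 rose and 5 fell at 24 h, 7 and 1 at 48 h, and 1 rose at 72 h, Cdkn1a, an inhibitor of the cell cycle (0.87, adjusted p = 0.032). Of the ribosomal proteins of the mitochondrion, 37 of 77 were called higher and 2 lower at 48 h (median 0.19). At 24 h 30 of 78 were called higher and 8 lower (median 0.087), and at 72 h 0 of 78 (16 at an unadjusted p under 0.05). Whether the lists differ was not tested.

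In the nuclei ribosomal protein genes took 0.336% of UMIs in sham replicate 1, 0.373% in UNx replicate 1, 1.17% in sham replicate 2 and 1.13% in UNx replicate 2. The labelled batch thus went with a difference of 3.48 times between the shams, and UNx was above sham in batch 3 and below it in batch 4. Mitochondrially encoded genes took 0.603, 0.924, 5.05 and 7.36% in the same order. Kap, a proximal tubule transcript, had 3521, 5440, 8157 and 9531 CPM in nuclei of other classes, in the same order. Both values move with the batch and are higher in UNx than in sham within each batch, and their part in the share was not tested. Of the nucleus barcodes 18 were shared between libraries.

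By edgeR 0 of 82 genes were called in all nuclei summed per mouse (0% of all genes tested), and 0 had an unadjusted p under 0.05. With the labelled batch as a block 0 of 82 were called (1.04% of all genes), and 19 had an unadjusted p under 0.05, all of them above 0, where 15.5% of all genes had such a p. The genes with the lowest p in the fit without the block were Rpl4 (0.37) and Rps15 (0.31) among those above 0, and Rpl7l1 (-0.06) and Rpl10 (-0.17) among those below, all with an adjusted p of 1.0. Rps15 had 50.2 and 59.2 CPM in sham and UNx of batch 3 and 136 and 157 CPM in those of batch 4, so that UNx was above sham in both. With the block its log2 fold change was 0.30 (adjusted p = 0.18) and that of Rpl4 0.32 (adjusted p = 0.19). Rpl5 had 52.4 and 51.9 CPM in batch 3 and 93.3 and 96.7 CPM in batch 4, with no common direction. On simulated nuclei with a log2 change of 1.0 the test recovered 0% of changed genes without the block and 89% with it. At 0.5 it recovered 0 and 32%, and the largest estimate of a ribosomal protein gene was 0.41 with the block, so a change of the size estimated could be missed in either fit. With the block 30 unchanged genes were also called in the simulation, whose means held no difference between batches.

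Gene by gene, 73 of 82 had a higher level in UNx than in sham in batch 3 (median ratio 1.11) and 33 in batch 4 (median ratio 0.963). In both batches 32 were higher and 8 lower. These levels are per total UMIs; with the TMM scaling of the fit, the estimate was above 0 for 59 of 82 without the block and 69 with it, with medians of 0.090 and 0.13 (all genes -0.011 and -0.013). Against batch 3, batch 4 shams had higher levels of 81 of the 82 (median ratio 3.45). The exception was Rpl7l1, with 37.1 CPM in sham replicate 1 and 28.3 CPM in sham replicate 2.

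Over the 23 deposited classes of nuclei with at least 10 nuclei in every mouse, the share was higher in UNx in all 23 in batch 3 (ratios 1.01 to 1.33) and in 9 in batch 4 (0.731 to 1.21). In the first proximal tubule class, PTS1, the largest with 2697 nuclei, it was 0.250, 0.254, 1.07 and 1.01% in sham 1, UNx 1, sham 2 and UNx 2. Endothelial class EC1 had 0.719, 0.812, 1.49 and 1.33%, and the urothelial class Uro 0.603, 0.715, 1.36 and 1.16%. The proximal tubule classes were thus among the lowest and EC1 and EC2 among the highest, and the rank correlation of the 23 classes between sham replicates was 0.718 and between UNx replicates 0.75. EC1 and EC2 also had the higher mitochondrial shares, 1.53 and 1.32% in sham 1 against 0.445% in PTS1. In sham 1 Kap had 5841 and 5092 CPM in EC1 and EC2 against 1783 in PTS1. Their median total per nucleus was 3664 and 3912 UMIs, against 10423 in PTS1. Whether the order of the classes follows these measures was not tested, and the rank correlation between replicates cannot tell. By edgeR 0 ribosomal protein genes were called in any class without the block (0% of all tests of a gene in a class) or with it (0.709%). Without the block 0 of 1789 tests of a ribosomal protein gene in a class had an unadjusted p under 0.05. With it 109 of them did, and by class the count lay above or below the share of all genes. In MTAL 21 of 81 had such a p, against 1123 of 13312 genes tested. In PTS1 it was 1 of 81 against 1936 of 14934, and in PTS2 3 of 81 against 2044 of 14293. In PTS1 no gene of the whole table was called without the block (0%) and 1.64% of genes with it, and in the fit without it Rpl36a had 0.69, Rps27 0.25 and Rpl29 -0.32 (adjusted p = 1.0 for each).

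**Figure D5:**
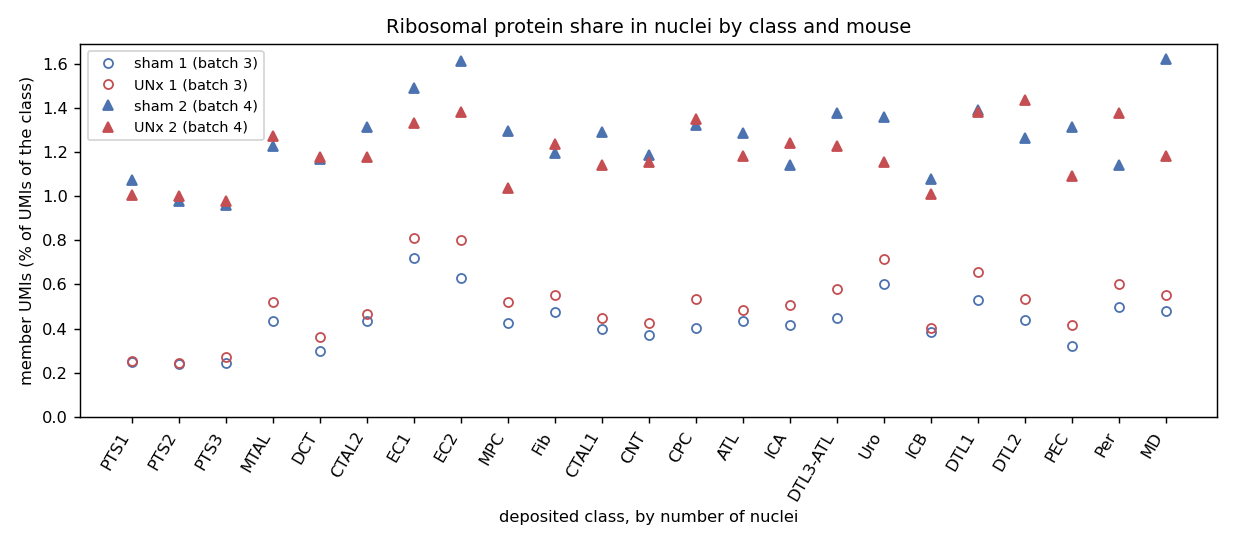
Share of UMIs from the ribosomal protein genes in percent (y axis) in each of 23 nucleus classes in order of their number of nuclei (x axis), 1 point per mouse (sham blue, UNx red, open circles batch 3, triangles batch 4). In every class the sham of batch 4 lies 2.07 to 4.29 times above that of batch 3.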

How the data were processed

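Bulk libraries were prepared with a stranded polyadenylated RNA kit, per the labels' protocols, and the deposited values are the authors' estimated counts per gene, not whole in 34.1% of entries. For bulk, Salmon 1.5.0, FastQC 0.11.8 and build GRCm39 are named per the submitters' processing notes, which for nuclei name alevin, Seurat and mm10. The deposited nucleus table holds the authors' estimated UMI counts, 13.9% of values above 0 not whole, with the authors' class for each nucleus; the lowest total per nucleus was 1755 UMIs. How alevin and Salmon were set to share reads among similar transcripts is not given in the sources used here.

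Genes were named for 28340 of 28467 identifiers. Counts were rounded. For each time point edgeR 4.0.16 (R 4.3.3) was fitted to 6 sham and 6 UNx libraries with filterByExpr, TMM scaling and the quasi-likelihood test, two-sided, with Benjamini-Hochberg adjustment over all genes tested. Differences between time points came from 1 fit of all 36 libraries. The nuclei of a mouse were added up, as a whole and by class, so that the mouse is the replicate; no doublet caller was run. Bulk CPM uses TMM-scaled library sizes, and nucleus CPM the total UMIs of a mouse. The log2 fold changes are edgeR's, and their SE is the estimate over the root of F. DESeq2 1.42.0 and limma 3.58.1 were alternatives. Tests were checked on simulated counts, where a log2 change of 0.5 was recovered in 84% of changed genes at 24 h (14000 genes), 66% at 48 h (14186) and 87% at 72 h (14449).

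The members, gene lists and tests were chosen with earlier results of these data known, so no list is independent evidence of its direction. Named members are the 6 called members with the largest rise and fall at each time (mean log2 CPM of at least 3), the 3 with the lowest p per direction for each difference between times and in the nuclei, and those of set roles and paralogs, and from each other list the 2 genes with the lowest p; some named genes are not reported here. Nothing in the labels shows that replicates were separate mice, so p-values measure the spread between these samples. None of 90 pairs of bulk replicates agreed within sampling noise (lowest chi-square per gene 5.33). Bulk replicate numbers did not pair the samples. In the nuclei the numbers go with the labelled batch, 1 sham and 1 UNx each, and the blocked fit is given in the report. Start sequences come from RefSeq (GRCm38.p6), copies from GENCODE M21 transcripts, which need not be the authors' annotation; no coordinate was carried between builds.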

Additional observations from a re-analysis of the deposited data

Results flagged for a closer look

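A library was looked at again where its gap to the nearest of the other 5 in its group, over the group's range, passed Dixon's critical value. This held for 18 of 104 groups of 6 tested, 13 of them among the 22 groups of 48 h UNx. For a single group chance gives about 1 in 20. The 22 are measures of the same 6 libraries, and their genes were called ones apart from Rps27. They are therefore not separate tests to set against that rate. In 48 h UNx replicate 6 was the lowest library for the mitochondrial share (ratio 0.952, at 15.2%), for the pseudogene score (0.889, at 0.0138) and for counts of ribosomal protein pseudogenes per 100 counts of the genes (0.706, at 5.74). The same library was the highest for Rpl22l1 (0.961), Rpl39 (0.911), Rpl24 (0.847), Rpl10 (0.825), Rps27a (0.773), Rpl5 (0.766), Rps6 (0.694), Rplp2 (0.661) and Rpl22 (0.653). In 48 h UNx replicate 5 Rps27 was the highest at 106 CPM (0.923).

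In other groups the ribosomal protein share was highest in 72 h UNx replicate 6 at 1.38% (0.690) and the pseudogene score in 24 h UNx replicate 6 at 0.870 (0.814). Rpl22l1 was highest in 24 h sham replicate 2 at 3.93 CPM (0.646), Rpl22 in 48 h sham replicate 6 at 97.9 CPM (0.757) and Rps27 in 72 h sham replicate 3 at 24.9 CPM (0.804).

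Effects of UNx that differed between time points, as log2 differences by edgeR's interaction test, were these. At 48 h relative to 24 h Rps26 differed by 1.29 (adjusted p = 1.7e-07), Rpl28 by 1.33 (5.1e-07) and Rpl19 by 0.72 (9.8e-07), and Rpl9 by -1.23 (2.6e-07), Rps27a by -1.44 (7.6e-07) and Rpl15 by -0.79 (4.1e-06). At 72 h relative to 48 h Rpl10 differed by 1.64 (adjusted p = 0.0030), Rps6 by 0.70 (0.0085) and Rpl24 by 0.70 (0.024), and Rpl35 by -0.93 (3.4e-05), Rps26 by -1.13 (4.9e-05) and Rpl28 by -1.14 (1.2e-04). At 72 h relative to 24 h Rpl19 differed by 0.42 (adjusted p = 0.011) and Rps3a1 by 0.37 (0.018), and Rpl9 by -0.87 (0.0021), Rps16 by -0.52 (0.0036) and Rpl37a by -0.66 (0.0045).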

How the results depend on the processing

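Counts of genes called kept within 1.5 times at 24 and 48 h under other scalings, filters and tools; leaving out single libraries gave 39 to 47 at 24 h, 31 (without UNx replicate 4) to 53 (without UNx replicate 6) at 48 h, 0 to 3 at 72 h (0 without sham replicate 2, 3, 4 or 6 or UNx replicate 1, 2 or 5, 3 without UNx replicate 6) and 0 in nuclei. For named genes leaving out a library gave 424 values on the same side of the threshold, 20 past it no longer and 0 of the other sign; other settings gave 474, 74 and 49. Bulk replicate numbers did not pair the samples (correlations of deviations from -0.285 to 0.135, over 0.1 in 0, 0 and 2 of 6 pairs, best with the own number in 1, 0 and 1); with the replicate block 40, 44 and 1 genes were called at 24, 48 and 72 h, and 61, 32 and 19 differences from 24 to 48, 48 to 72 and 24 to 72 h. With the mitochondrial share as covariate 11 were called at 24 h and 0 at 48 h. With the pseudogene score 0 were called at 24 h, 0 at 48 h and 0 at 72 h (3, 3 and 13 at an unadjusted p under 0.05), and 0, 0 and 2 differences from 24 to 48, 48 to 72 and 24 to 72 h. At 72 h DESeq2 and voom each called 5, the fit of all 36 libraries 0 and the counts with copies 0. Counts under other settings are given without the share of all genes called, so none is read as particular to these genes. UNx replicate 6 alone against the 48 h shams called 0, no filter left 19 differences from 48 to 72 h, and the 48 h share differed by -0.123 points without mitochondrial counts.

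Among the genes reported, signs turned at 24 h with the pseudogene score for Rpl10 (-0.28), Rpl9 (-0.015), Rps27a (-0.14), Rpl39 (-0.080), Rps14 (-0.056), Rpl37a (-0.040), Rpl28 (0.12), Rpl23 (0.045), Rps6 (-0.15), Rplp0 (0.021), Rpl7 (-0.15), Rpl22l1 (-0.31) and Rps27l (-0.083), with named pseudogenes added for Rps6 (-0.053), and with copies added for Rpl5 (0.085) and Rps6 (-0.053). At 48 h they turned with the mitochondrial share for Rps28 (-0.10), Rpl10 (0.037), Rpl22l1 (0.24), Rpl39 (0.33), Rpl24 (0.23), Rps27a (0.16), Rplp2 (0.024), Rpl7 (0.094) and Rpl22 (0.12). With the pseudogene score they turned for Rps28 (-0.024), Rpl22l1 (0.22), Rpl39 (0.30), Rpl24 (0.20), Rps27a (0.14), Rpl5 (0.042), Rplp2 (0.013), Rpl7 (0.092) and Rpl22 (0.10), and with UNx replicate 6 alone for Rps28 (-0.088), Rpl22l1 (0.19), Rpl39 (0.28), Rpl24 (0.18), Rps27a (0.12), Rpl7 (0.075) and Rpl22 (0.086). Named pseudogenes added turned Rps6 (0.41), and copies Rps6 (0.41) and Rpl24 (0.064). Differences from 48 to 72 h turned for Rpl24 with the pseudogene score (-0.073) and with copies (-0.11), and for Rps6 with named pseudogenes (-0.52) and with copies (-0.52). The cause of these changes was not tested. Where the score or the mitochondrial share separates UNx libraries from shams, a fit with it cannot tell it from UNx.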
